A study of Mus musculus with 4 samples.

Results

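The genes of the interleukin-15 system were compared in 4 myeloid cell populations sorted from tumours of EO771, a mammary carcinoma line of mice. The set holds 8 genes chosen by name: the cytokine gene Il15, its receptor chain genes Il15ra, Il2rb and Il2rg, the Janus kinase genes Jak1 and Jak3, and the transcription factor genes Stat5a and Stat5b. All 8 were among the 13976 genes of the deposited expression table. RNA was sequenced from a dendritic cell (DC) population labelled CD103intCD11b+DC (CD103int DC below), from conventional DC of type 1 (labelled CD103+cDC1) and of type 2 (labelled CD11b+cDC2), and from macrophages. Each population had 1 library. The study's title concerns hetIL-15, interleukin-15 paired with its alpha receptor chain, given near the tumour. The labels used here do not say whether the sorted tumours had been treated, how many mice were pooled, their strain or age, or which gates were used.

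Interleukin-15 is a cytokine that keeps natural killer (NK) cells and memory CD8 T cells alive and dividing. A cell that makes it also makes the alpha chain, IL-15Ra, which holds the cytokine on the cell surface and presents it to a neighbouring cell. The neighbour responds through the beta chain, which is shared with interleukin-2, and the common gamma chain, which is shared with several other cytokines. JAK1 and JAK3 sit on these chains and phosphorylate STAT5A and STAT5B, which then enter the nucleus. In myeloid tissue, macrophages and DC are known as presenting cells of interleukin-15.

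Levels are given in CPM (counts per 1000000 reads) on the authors' scale. The libraries stood for between 44425900 and 63817500 estimated reads, and the range after a level or a fold is its 95% interval from counting error alone. With no replicate library, no difference was checked against variation between mice or sorts, and no p-value is given. Genes listed at 0 numbered 10 in CD103int DC, 454 in cDC1, 19 in cDC2 and 20 in macrophages. Yet cDC1 and cDC2 were of like depth, at 44425900 and 44940500 estimated reads. The part of this in the low levels of cDC1 was not tested, and the counting intervals do not cover it. Sort markers were checked with short lists. Of all genes at 1 CPM or more, 18.3% were highest in CD103int DC, 34.0% in cDC1, 15.9% in cDC2 and 31.8% in macrophages. Of 8 markers of cDC1, 7 were highest in the cDC1 library. So were all 5 markers of plasmacytoid DC in the table, which summed to 72.8 CPM in CD103int DC, 648 in cDC1, 84.1 in cDC2 and 125 in macrophages (Siglech 0.366, 15.0, 1.38 and 0.733 CPM). Most of that sum was Tcf4, at 63.2, 501.5, 70.7 and 110.2 CPM in the same libraries. All 3 tumour epithelial markers in the table were also highest in the cDC1 library, at a sum of 200 CPM in CD103int DC, 425 in cDC1, 120 in cDC2 and 89.9 in macrophages, most of it Cdh1. Of 7 markers of cDC2, 1 was highest in CD103int DC, 3 in cDC1, 1 in the library labelled cDC2 and 2 in macrophages. Of 8 macrophage markers, 4 were highest in the library labelled cDC2 and 4 in macrophages, so that these lists did not set these libraries apart. The header of the macrophage column began with another code than those of the DC columns, and whatever that code marks cannot be told apart from the population. Scaling every column to the same total moved the median difference over all genes by 0.237 (log2) for CD103int DC against macrophages, by -0.1 against cDC1 and by -0.00838 against cDC2. It moved cDC1 against macrophages by 0.342 and cDC2 against macrophages by 0.247. Directions that turn under such scaling are named beside each gene.

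The members split into a group that varied more and a group that varied less. Il15, Il2rb, Il15ra and Stat5a spanned 19.4-fold, 17.1-fold, 4.69-fold and 3.47-fold from the lowest to the highest library. Of all genes at 1 CPM or more, 95.6%, 95.3%, 85.1% and 78.8% spanned less than these 4. Il2rg, Jak1, Jak3 and Stat5b spanned between 1.32-fold (Jak3, with 16.4% of all genes spanning less) and 1.76-fold (Jak1, with 45.6%). No member was highest in CD103int DC, where 18.3% of all genes at 1 CPM or more were highest. There 4 were lowest (Il2rb, Il2rg, Jak3 and Stat5b), where 16.6% of all genes were lowest. Equal protein-coding totals added Il15ra and made it 5, with 16.2% of all genes. The ratio of cDC2 to CD103int DC was 1.01 (0.955 to 1.08) for Jak3 and 1.04 (0.992 to 1.09) for Stat5b. Both intervals hold 1, as does that of Il15ra between CD103int DC and cDC1 as reported. A gene was counted as apart between 2 libraries when it differed at least 2-fold on log2(CPM + 1) with at least 1 CPM in the higher one. By this rule CD103int DC had 1 member higher than in cDC1 (Il15), where 10.1% of all genes were higher, and 2 lower (Il2rb and Stat5a), where 6.77% were lower. Against cDC2 it had 0 higher, with 1.95% of all genes higher, and 1 lower (Il2rb), with 0.986% lower. Against macrophages it had 0 higher, with 5.17% of all genes higher, and 3 lower (Il15, Il15ra and Il2rb), with 6.62% lower. Among the other pairs, cDC1 against cDC2 had 1 higher (8.0% of all genes) and 1 lower (10.6%), cDC1 against macrophages 2 higher (11.4%) and 2 lower (14.3%), and cDC2 against macrophages 1 higher (2.45%) and 2 lower (4.66%). With equal totals, 2 members (Il15 and Il15ra) were lower in CD103int DC than in macrophages, and the other member counts did not change. Under this scaling the shares of all genes higher and lower in CD103int DC came to 9.06% and 7.98% against cDC1. They came to 8.55% and 4.0% for CD103int DC against macrophages, 19.0% and 9.94% for cDC1 against macrophages, and 5.19% and 2.40% for cDC2 against macrophages. With equal protein-coding totals they came to 8.32% and 8.93% for CD103int DC against cDC1, and 10.2% and 9.09% for cDC1 against cDC2. The median log2 difference over the 8 members was -0.33 for CD103int DC against cDC1, -0.07 against cDC2 and -0.74 against macrophages, beside a median over all genes of 0.01 against cDC1 and closer to 0 against the others.

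**Figure D1:**
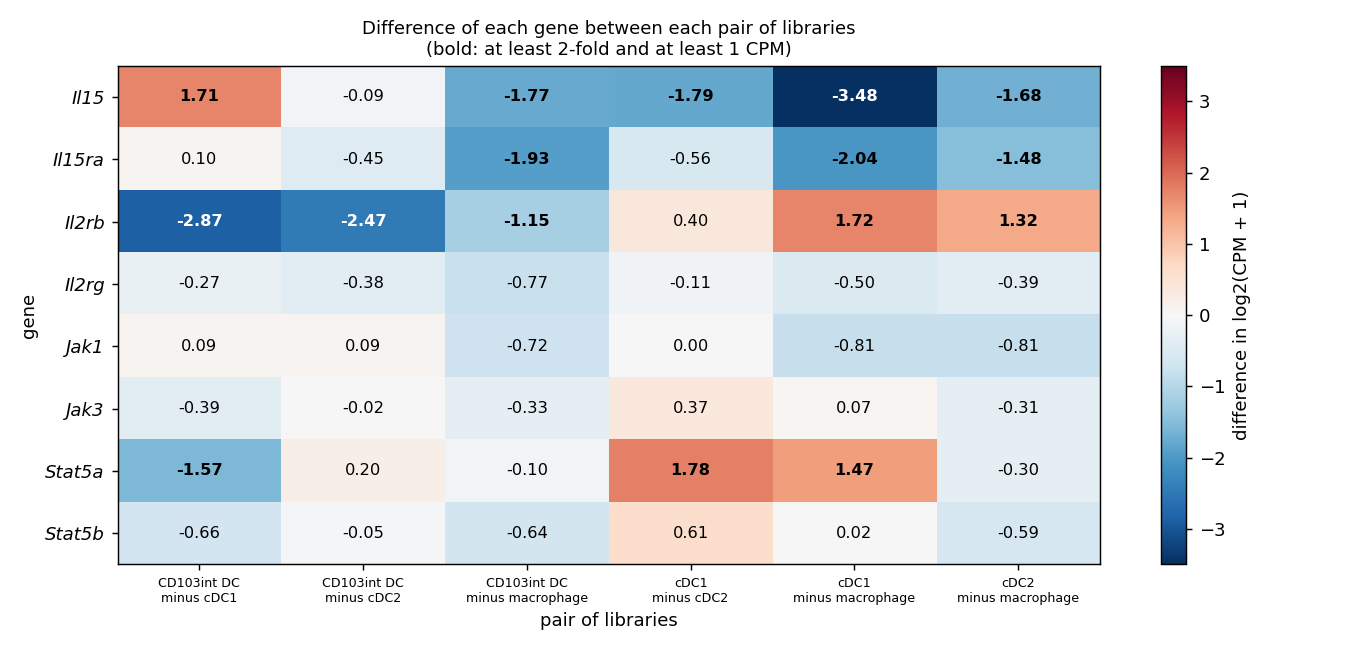
Difference in log2(CPM + 1) for each member (rows) in each of the 6 pairs of libraries (columns), the first library named minus the second, with bold values for members at least 2-fold apart with at least 1 CPM. The cells of Il15 and Il2rb hold the largest differences, -3.48 for Il15 in cDC1 against macrophages and -2.87 for Il2rb in CD103int DC against cDC1, while the rows of Il2rg, Jak1, Jak3 and Stat5b hold none in bold.

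Il15 encodes the cytokine itself and lies on chromosome 8, at chr8:82331632-82403222 on the minus strand of GRCm38. It stood at 6.25 (5.62 to 6.93) CPM in CD103int DC, 1.22 (0.933 to 1.57) CPM in cDC1, 6.70 (5.98 to 7.49) CPM in cDC2 and 23.7 (22.5 to 25.1) CPM in macrophages. Macrophages were high, cDC1 was low, and CD103int DC and cDC2 lay between them with intervals that overlapped. CD103int DC thus had 5.11-fold (3.88 to 6.84) more Il15 than cDC1, a log2 difference of 1.71 that came to 0.855, short of the 2-fold rule, with a pseudocount of 5 CPM. Their level was 3.80-fold (3.37 to 4.28) lower than that of macrophages. Against cDC2 the ratio was 0.933 (0.799 to 1.09), an interval that holds 1. The widest gap was between cDC1 and macrophages, 19.4-fold (15.0 to 25.6) lower in cDC1. The cDC1 level rested on 60 estimated reads and the macrophage level on 1295. The cDC1 library also had 454 genes listed at 0, more than any other library. Per length, the transcript was near the middle of all genes in CD103int DC and cDC2, lower in cDC1 and higher in macrophages: 45.3% of all genes had a lower level per kilobase of exon than Il15 in CD103int DC, 17.6% in cDC1, 47.1% in cDC2 and 73.8% in macrophages.

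Il15ra, the alpha chain that binds interleukin-15 and presents it, lies at chr2:11705290-11734317 on the plus strand. It stood at 5.70 (5.09 to 6.35) CPM in CD103int DC, 5.24 (4.62 to 5.92) CPM in cDC1, 8.17 (7.37 to 9.04) CPM in cDC2 and 24.6 (23.3 to 25.9) CPM in macrophages. The macrophage library again stood apart, but here CD103int DC and cDC1 were the pair whose intervals overlapped. CD103int DC were 4.32-fold (3.82 to 4.89) lower than macrophages and 1.44-fold (1.23 to 1.67) lower than cDC2. Against cDC1 their ratio was 1.09 (0.920 to 1.29), a log2 difference of 0.10 that turned to -0.05 when columns were scaled to the same protein-coding total.

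The proportion of the receptor to its ligand differed between the libraries. Il15ra took 47.7% (43.9 to 51.5) of the estimated reads of the pair in CD103int DC, 81.1% (76.3 to 85.2) in cDC1, 54.9% (51.1 to 58.7) in cDC2 and 50.9% (49.0 to 52.8) in macrophages (exact binomial intervals). Which of the pair was higher per length depended on the length used. Per kilobase of all annotated exons, the level of Il15ra over that of Il15 was 0.463 in CD103int DC, 2.18 in cDC1, 0.620 in cDC2 and 0.527 in macrophages. Per kilobase of the longest principal transcript of each gene it was 1.09, 5.11, 1.45 and 1.24 in CD103int DC, cDC1, cDC2 and macrophages. Only the cDC1 library had more Il15ra than Il15 on both scales.

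The promoter of Il15ra is shown because its transcript was among those that varied most and because Il15 itself has no entry in the promoter table used. Motifs of interferon and cytokine signalling and of the myeloid factor PU.1 were searched in the 250 bases before each start of transcription in RefSeq (GRCm38.p6), on both strands. The interferon-stimulated response element core was written as GAAA, any 2 bases and GAAA again, the gamma-activated site bound by STATs as TTCNNNGAA, and the PU.1 core as GAGGAA. The stretch lies at chr2:11705043-11705292 on the plus strand, 5′ to 3′, and capitals mark the 2 matches to the PU.1 core, which lie on the opposite strand at -212 and -196 from the start.
Il15ra promoter: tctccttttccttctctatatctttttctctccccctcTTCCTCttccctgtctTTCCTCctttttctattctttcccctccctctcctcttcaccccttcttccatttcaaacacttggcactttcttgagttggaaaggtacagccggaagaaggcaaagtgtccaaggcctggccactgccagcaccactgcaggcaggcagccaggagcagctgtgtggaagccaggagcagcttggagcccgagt

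Neither the interferon core nor the gamma-activated site was in this window or in the second window of Il15ra. Of the 32851 windows of this length in the table, 23.3% held the PU.1 core, 2.98% the interferon core and 7.02% the gamma-activated site. Among the 9 windows of the 6 members with an entry, the PU.1 core was also in 1 window of Stat5a, at -33, and the other letters were in none. A match describes the letters and shows no binding.

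**Figure D2:**
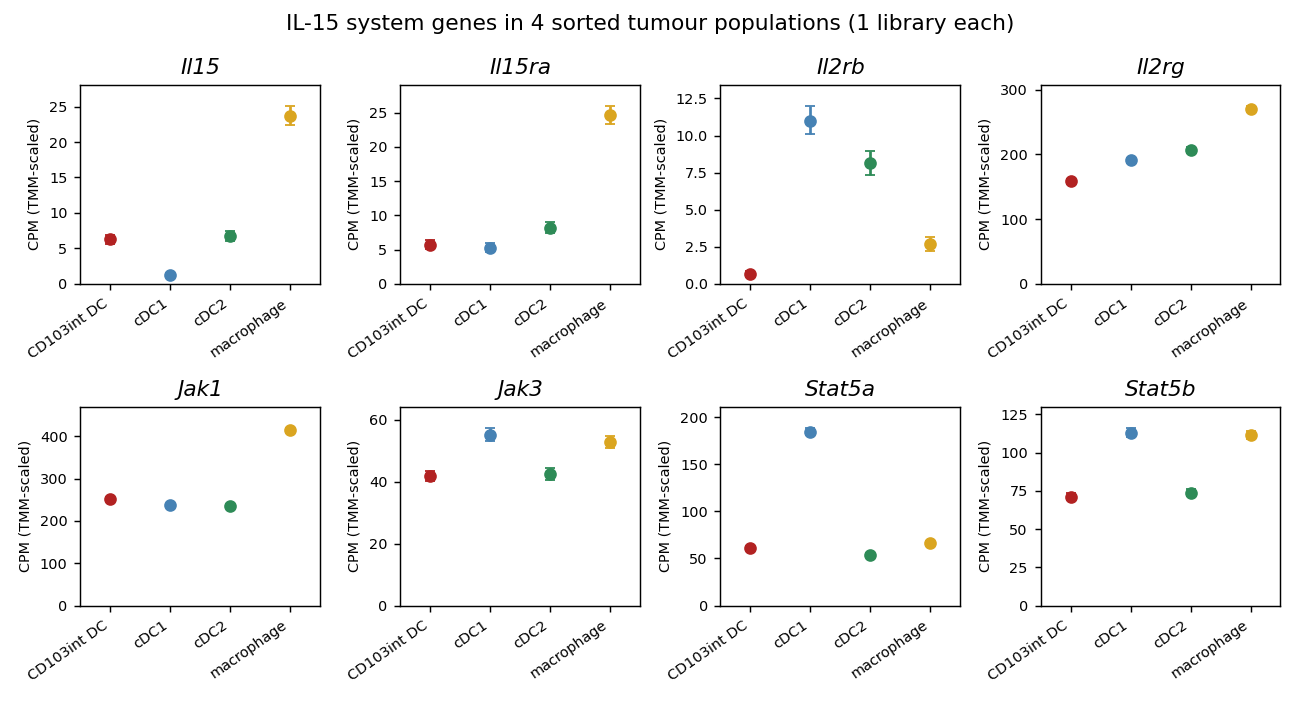
Level of each member in CPM on a linear axis from 0 (1 panel per gene) in CD103int DC, cDC1, cDC2 and macrophages, with 95% counting intervals as bars (1 library each). Il15 and Il15ra are highest in macrophages, at 23.7 and 24.6 CPM, Il2rb is lowest in CD103int DC, at 0.644 CPM, and Stat5a stands out in cDC1, at 184.8 CPM.

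Il2rb encodes the beta chain, which carries the signal of interleukin-15 and interleukin-2 into the responding cell, and lies at chr15:78479256-78495271 on the minus strand. It stood at 0.644 (0.454 to 0.888) CPM in CD103int DC, 11.0 (10.1 to 12.0) CPM in cDC1, 8.13 (7.33 to 8.99) CPM in cDC2 and 2.66 (2.24 to 3.13) CPM in macrophages. The 4 intervals did not overlap, and CD103int DC were the lowest. Only 37 estimated reads carried the gene there, against 540 in cDC1, 377 in cDC2 and 145 in macrophages. CD103int DC were 17.1-fold (12.2 to 24.5) lower than cDC1, 12.6-fold (8.99 to 18.2) lower than cDC2 and 4.12-fold (2.86 to 6.09) lower than macrophages. On log2(CPM + 1) the last of these was -1.15, but -0.98 with equal totals and -0.44 with a pseudocount of 5 CPM, both short of the 2-fold rule. On the level per kilobase, 4.19% of all genes stood below Il2rb in CD103int DC, 43.6% in cDC1, 37.9% in cDC2 and 21.0% in macrophages. In bulk RNA, fewer cells of a type and less RNA per cell cannot be told apart.

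Transcripts of T cells and NK cells, the cells best known for this receptor chain, moved with Il2rb. Of 17 markers of the T and NK lists in the table, 15 were lowest in CD103int DC (14 with equal totals), 8 highest in cDC1, 7 highest in cDC2 and 2 highest in macrophages. Over all genes at 1 CPM or more, 16.6% were lowest in CD103int DC (13.4% with equal totals). Highest in cDC1, cDC2 and macrophages were 34.0%, 15.9% and 31.8% of all genes. The 9 T cell markers summed to 1.71 CPM in CD103int DC, 16.1 in cDC1, 16.2 in cDC2 and 8.75 in macrophages, with none at 0. The 8 NK cell markers summed to 14.9 CPM in CD103int DC, 80.1 in cDC1, 30.4 in cDC2 and 15.6 in macrophages. Most of that was Klrd1, at 13.8, 67.3, 15.7 and 11.2 CPM in CD103int DC, cDC1, cDC2 and macrophages, and Klrb1c was listed at 0 in cDC1. The T cell receptor component Cd3e was at 0.0174 CPM in CD103int DC, 2.24 in cDC1, 1.79 in cDC2 and 0.715 in macrophages, and the NK receptor Ncr1 at 0.122, 1.92, 0.690 and 0.238 CPM in the same libraries. Leaving out Klrd1, a choice made after its values were seen, the other 16 markers summed to 2.80, 28.9, 30.9 and 13.2 CPM in CD103int DC, cDC1, cDC2 and macrophages. The level of Il2rb was 0.230, 0.381, 0.263 and 0.202 times these sums. The plasmacytoid DC markers given above were also highest in cDC1. The part of these markers in the Il2rb levels was not tested.

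**Figure D3:**
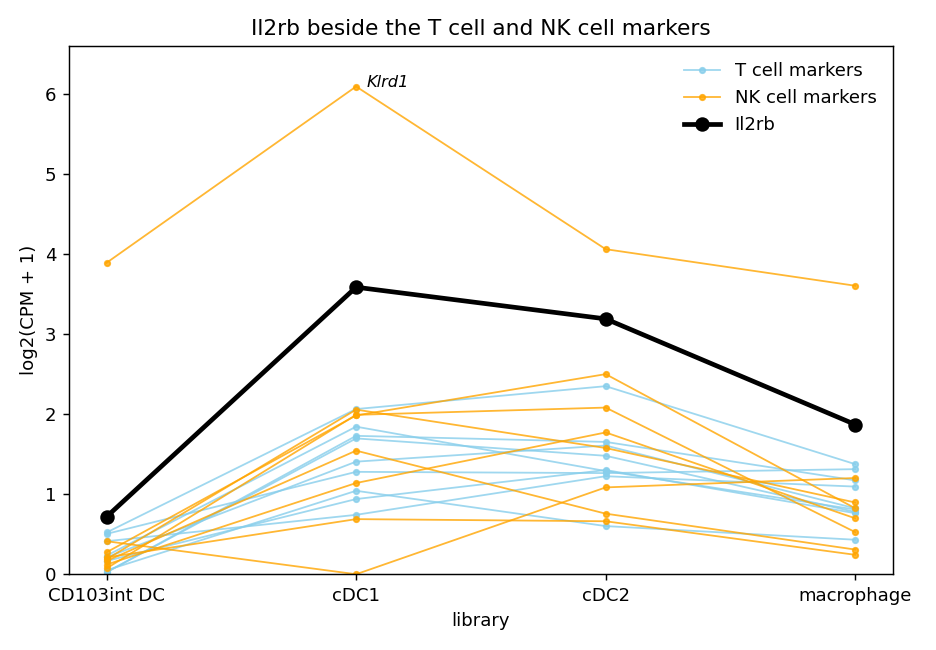
Level on a log2(CPM + 1) axis of Il2rb (black) and of the 9 T cell markers (blue) and 8 NK cell markers (orange) in the 4 libraries, with lines that only join the values of 1 gene. Il2rb and most markers are lowest in CD103int DC (0.644 CPM for Il2rb) and higher in cDC1 and cDC2 (11.0 and 8.13 CPM), while Klrd1 stands above the other markers throughout.

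Il2rg encodes the common gamma chain and lies on the X chromosome, at chrX:101264378-101268255 on the minus strand. It stood at 158 (155 to 161) CPM in CD103int DC, 191 (187 to 195) CPM in cDC1, 206 (202 to 211) CPM in cDC2 and 270 (266 to 274) CPM in macrophages. CD103int DC were the lowest library, 1.21-fold (1.17 to 1.24) below cDC1, 1.31-fold (1.27 to 1.34) below cDC2 and 1.71-fold (1.66 to 1.75) below macrophages, all under the 2-fold rule. The order of cDC1 and cDC2 turned with equal protein-coding totals, to a log2 difference of 0.05. Per kilobase of exon it was the highest of the 8 members in every library, above 95.6% of all genes in CD103int DC, 96.9% in cDC1, 96.5% in cDC2 and 96.8% in macrophages. The gamma chain exceeded the beta chain per kilobase of all annotated exons by 441-fold in CD103int DC, 31.1-fold in cDC1, 45.6-fold in cDC2 and 183-fold in macrophages. Per kilobase of the longest principal transcript it was 616-fold, 43.5-fold, 63.8-fold and 255-fold in the same libraries. The CD103int DC ratio rested on 37 estimated reads of Il2rb, 0.406% (0.286 to 0.559) of the reads of the pair. The exons of Gm20489, a gene model on the same strand that is not listed in the table, share 728 bases with those of Il2rg, and reads there could have been given to either.

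Jak1, the kinase that sits on the beta chain and on many other cytokine receptors, lies at chr4:101152367-101265282 on the minus strand. It stood at 252 (247 to 256) CPM in CD103int DC, 237 (232 to 241) CPM in cDC1, 236 (231 to 240) CPM in cDC2 and 414 (409 to 420) CPM in macrophages. The 3 DC libraries lay close together, and macrophages were high. CD103int DC were 1.65-fold (1.61 to 1.68) lower than macrophages. Their ratio was 1.06 (1.04 to 1.09) to cDC1 and 1.07 (1.04 to 1.09) to cDC2. The direction against cDC1 turned when columns were scaled to equal totals, to a log2 difference of -0.02, or to equal protein-coding totals, to -0.09.

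Jak3, the kinase bound to the common gamma chain, lies at chr8:71676296-71690575 on the plus strand. It stood at 41.8 (40.2 to 43.5) CPM in CD103int DC, 55.3 (53.2 to 57.4) CPM in cDC1, 42.4 (40.6 to 44.3) CPM in cDC2 and 52.8 (50.9 to 54.7) CPM in macrophages. The libraries fell into a lower pair, CD103int DC and cDC2, with a ratio of 0.986 (0.928 to 1.05), and a higher pair, cDC1 and macrophages, with a ratio of 1.05 (0.993 to 1.10). These pairs rest on the scaling: with equal totals Jak3 came to 43.1, 61.3, 44.0 and 45.3 CPM in CD103int DC, cDC1, cDC2 and macrophages, which left cDC1 alone as high. CD103int DC were 1.32-fold (1.25 to 1.40) below cDC1 and 1.26-fold (1.20 to 1.33) below macrophages. Jak3 took 14.3% (13.7 to 14.8) of the reads of both kinases in CD103int DC, 18.9% (18.3 to 19.6) in cDC1, 15.2% (14.6 to 15.9) in cDC2 and 11.3% (10.9 to 11.7) in macrophages. Insl3, a gene on the same strand that is not listed in the table, shares 404 exon bases with Jak3.

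Stat5a and Stat5b are neighbouring genes on chromosome 11 with nearly the same coding sequence, at chr11:100859351-100885169 on the plus strand and chr11:100780731-100850724 on the minus strand. Their coding sequences, of 2379 and 2358 bases, were identical at 90.7% of 2343 aligned positions, and the longest identical run had 324 bases. To show how the copies can and cannot be told apart, the 60-base window that differs most, at coding bases 85 to 144 of each gene, is printed first, with capitals at the 19 positions where they differ. The window that follows, at coding bases 178 to 237, is the same in both genes.
Stat5a different window: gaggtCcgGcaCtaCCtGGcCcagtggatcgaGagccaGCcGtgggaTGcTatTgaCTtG
Stat5b different window: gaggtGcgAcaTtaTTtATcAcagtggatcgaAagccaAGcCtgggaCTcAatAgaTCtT
Shared window: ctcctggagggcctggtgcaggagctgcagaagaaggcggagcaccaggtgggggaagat

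Of the words of 50 bases in their annotated transcripts, 8.52% of those of Stat5a and 11.0% of those of Stat5b occurred in transcripts of another gene. The deposited values show how such reads were handled. The estimated reads were not whole for Stat5a or Stat5b in any library (3524.67 and 4084.33 in CD103int DC), while their sum was whole in all 4 libraries, 7609 in CD103int DC, 14608 in cDC1, 5895 in cDC2 and 9677 in macrophages. Reads were thus shared out between this pair by estimate, and the sum does not depend on how. Il15, Il15ra, Il2rb, Il2rg and Jak1 had whole estimated reads in every library. Jak3 had whole reads in CD103int DC and macrophages, but not in cDC1 (2710.24) or cDC2 (1967.85).

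Stat5a stood at 61.4 (59.4 to 63.4) CPM in CD103int DC, 184.8 (181 to 189) CPM in cDC1, 53.2 (51.1 to 55.4) CPM in cDC2 and 65.9 (63.8 to 68.1) CPM in macrophages. The cDC1 library was high and the other 3 lay close together. The plasmacytoid DC and tumour epithelial markers given above were highest in that library too. Of the epithelial markers, Cdh1 had 416 CPM there, but Epcam only 6.08 CPM and Krt8 3.20 CPM. The part of these markers in the Stat5a level was not tested. CD103int DC were 3.01-fold (2.90 to 3.13) lower than cDC1. Their ratio was 1.15 (1.10 to 1.22) to cDC2 and 0.931 (0.889 to 0.976) to macrophages, and the direction against macrophages turned to a log2 difference of 0.16 with equal totals and 0.09 with equal protein-coding totals. Stat5b stood at 71.1 (69.0 to 73.4) CPM in CD103int DC, 113 (110.1 to 116) CPM in cDC1, 73.9 (71.4 to 76.4) CPM in cDC2 and 111 (109 to 114) CPM in macrophages. Its libraries formed the same lower and higher pairs as those of Jak3, but with equal totals they came to 73.3, 125 and 76.6 CPM in CD103int DC, cDC1 and cDC2, with macrophages between at 95.7 CPM. CD103int DC were 1.59-fold (1.53 to 1.66) below cDC1 and 1.57-fold (1.51 to 1.63) below macrophages, with a ratio of 0.963 (0.920 to 1.01) to cDC2.

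The share of Stat5a in the reads of the pair was 46.3% (45.2 to 47.4) in CD103int DC, 62.0% (61.3 to 62.8) in cDC1, 41.9% (40.6 to 43.1) in cDC2 and 37.2% (36.2 to 38.1) in macrophages. These intervals, and those of each gene above, leave out the error of sharing out reads between the pair by estimate. Their summed level was 132.5 (129.6 to 135.5) CPM in CD103int DC, 298 (293 to 303) CPM in cDC1, 127 (124 to 130.4) CPM in cDC2 and 177 (174 to 181) CPM in macrophages. On this sum CD103int DC were at 0.445 (0.433 to 0.458) of cDC1, 1.04 (1.01 to 1.08) of cDC2 and 0.747 (0.725 to 0.770) of macrophages. The exons of Stat3 on the opposite strand share 72 bases with those of Stat5a.

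Other genes around the receptor were compared as 7 lists. Of the cytokines that use the common gamma chain, Il2, Il4, Il9 and Il21 are not listed in the table. Il7 had 1.01 CPM in CD103int DC, was listed at 0 for cDC1, and had 0.625 CPM in cDC2 and 0.568 CPM in macrophages, which put it past the 2-fold rule against cDC1 (log2 difference 1.01). Of the receptor chains that pair with the gamma chain, Il9r is not listed, and 0 of the other 4 were past the 2-fold rule on log2(CPM + 1) in any pair with CD103int DC. Among them the interleukin-4 receptor gene Il4ra was the highest, at 176 CPM in CD103int DC, 236 in cDC1, 206 in cDC2 and 232 in macrophages. The alpha chain of the interleukin-2 receptor, Il2ra, was between 2.04 CPM (CD103int DC) and 2.72 CPM (cDC2) in all libraries. Il21r, the interleukin-21 receptor, was at 49.5 CPM in CD103int DC, 24.4 in cDC1, 57.6 in cDC2 and 31.8 in macrophages. Its ratio of CD103int DC to cDC1 was 2.03 in CPM and its log2 difference 0.99, just short of the rule, which it passed with a pseudocount of 0.1 CPM (1.02).

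Against cDC2, 0 of the genes in these lists were 2-fold higher or lower in CD103int DC, as reported or under any of the 7 alternative settings. As reported, 1.95% of all genes were higher and 0.986% lower in this pair, so 0 calls in lists of this length is near these shares. For the counts that follow, 10.1% of all genes were higher and 6.77% lower than in cDC1. Against macrophages, 5.17% of all genes were higher and 6.62% lower. Against cDC1, 2 of 6 other Janus kinases and STATs were lower, the kinase gene Jak2 (151 against 344 CPM) and Stat4 (5.75 against 15.9 CPM), and 0 were higher. Against macrophages 2 of these 6 were lower and 0 higher: Jak2 (151 against 306 CPM) and the interferon signalling gene Stat2 (171 against 401 CPM). Both calls against macrophages depended on the scaling. With equal totals the log2 difference came to -0.75 for Jak2 and -0.965 for Stat2, short of 2-fold, and with equal protein-coding totals only Stat2 was past it. With a pseudocount of 5 CPM, Jak2 came to -0.996. Of 12 genes of the adaptor, PI3K and MAPK arm, 0 were apart from cDC1 or from macrophages.

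Of 12 STAT5 targets and survival genes, CD103int DC had 2 higher than in cDC1 (3 with a pseudocount of 0.1 CPM, which adds Socs2 at a log2 difference of 1.09). These were the cytokine gene Osm, at 147 against 16.7 CPM, and Bcl2l1, which encodes the survival protein BCL-xL, at 59.1 against 22.0 CPM. The kinase gene Pim2 (1.27 against 5.36 CPM) and the cyclin gene Ccnd3 (157 against 392 CPM) were lower. With a pseudocount of 5 CPM, Pim2 (-0.724 on the log2 scale), Stat4 (-0.956) and Il7 (0.265) were no longer apart from cDC1. Against macrophages Socs2, a feedback inhibitor induced by STAT5, was higher in CD103int DC (12.3 against 4.53 CPM, a log2 difference of 1.27 that came to 0.861 with a pseudocount of 5 CPM, short of the rule), and the survival gene Mcl1 (721 against 1465 CPM) and Osm (147 against 305 CPM) were lower. With equal totals Mcl1 and Osm were short of 2-fold (-0.76 and -0.78), and Myc, a transcription factor gene of cell growth, passed it (1.07, or 0.82 as reported). Cish, another inhibitor induced by STAT5, was at 53.1 CPM in CD103int DC, 36.5 in cDC1, 39.8 in cDC2 and 62.8 in macrophages, with no pair with CD103int DC past 2-fold. The median log2 difference of these 12 genes was 0.53 against cDC1, -0.08 against cDC2 and -0.21 against macrophages.

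Of 8 brakes on the pathway, Socs1, which blocks Janus kinases, was the 1 gene apart (from cDC1 and from macrophages), at 23.9 CPM in CD103int DC, 9.01 in cDC1, 27.6 in cDC2 and 50.8 in macrophages. Its difference to macrophages was -1.06 on log2(CPM + 1), but -0.80 with equal totals and -0.949 with a pseudocount of 5 CPM, both short of the rule. All 8 brakes were highest in macrophages (5 with equal totals), as were 7 of 8 genes known to act on Il15 production or on shedding of its receptor (6 with equal totals), where 31.8% of all genes were highest in macrophages (17.1% with equal totals). In that list Irf1, a factor that induces Il15, was at 189 CPM in CD103int DC, 128 in cDC1, 235 in cDC2 and 384 in macrophages. Adam17, a protease that sheds IL-15Ra, was at 167 CPM in CD103int DC, 96.6 in cDC1, 206 in cDC2 and 293 in macrophages. Nfkb1 was the 1 gene of this list apart from cDC1, at 232 CPM in CD103int DC against 509 CPM in cDC1. Against macrophages, Irf1 was the 1 gene of this list lower in CD103int DC by the rule, and it was short of 2-fold with equal totals (-0.76).

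**Figure D4:**
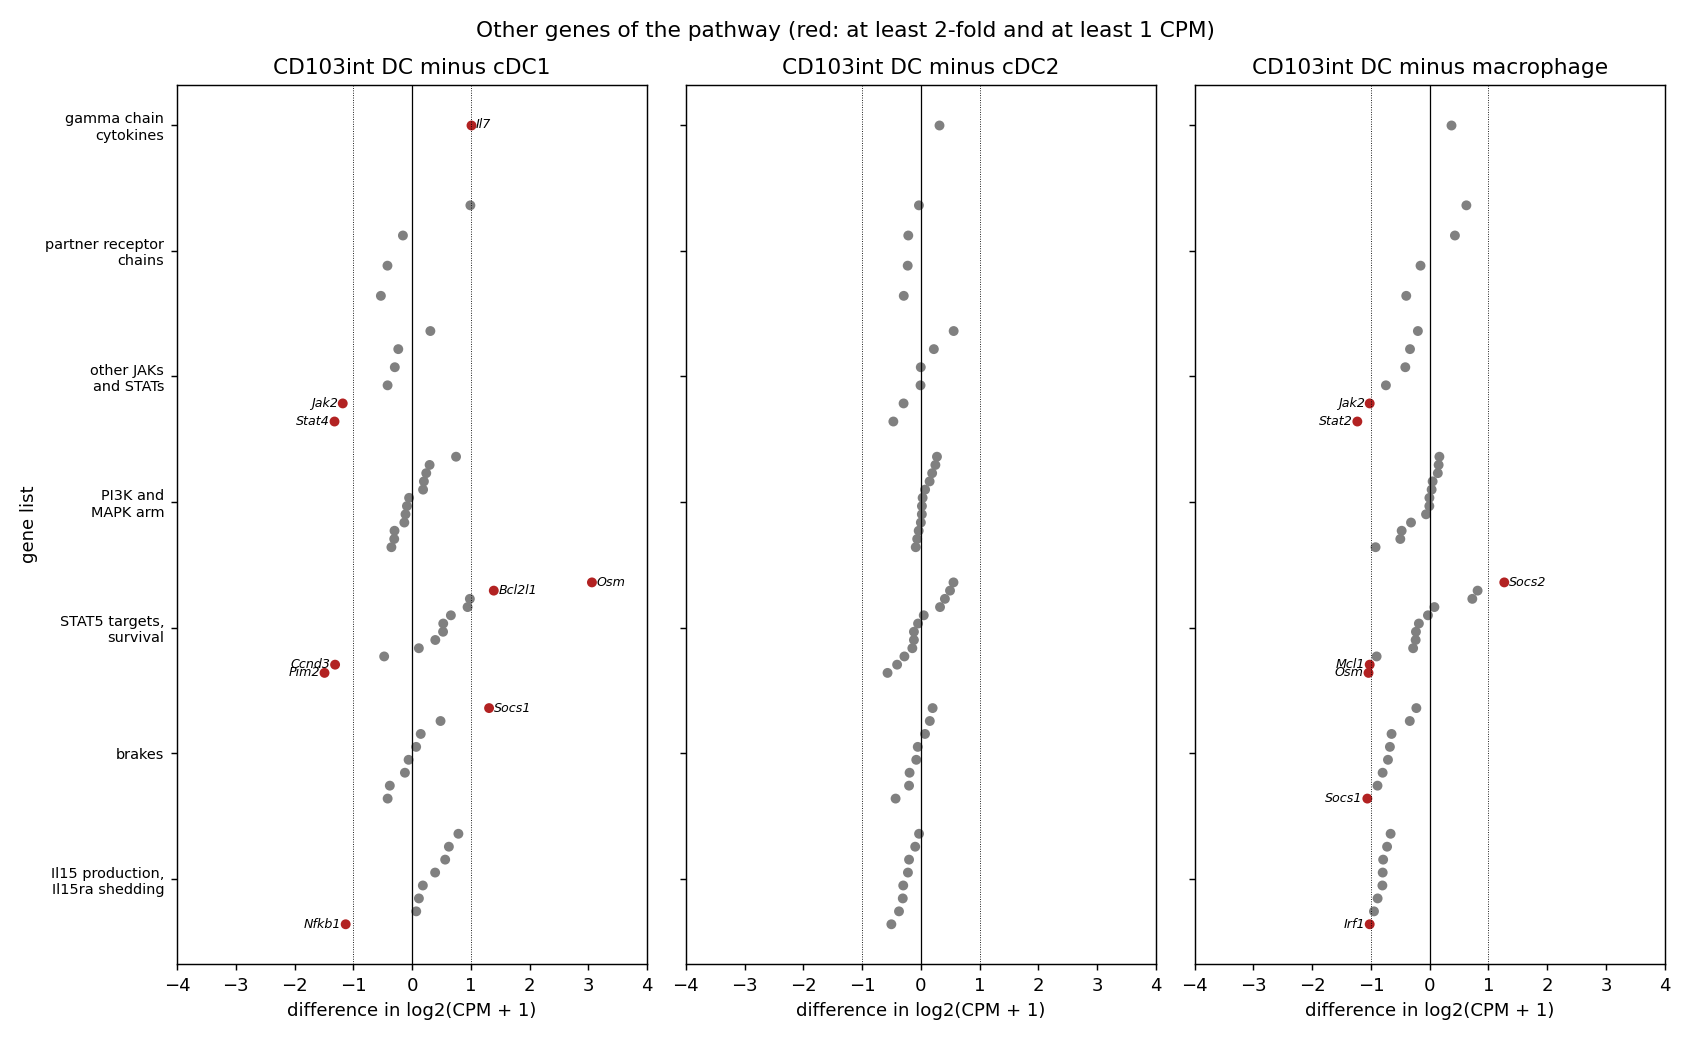
Difference in log2(CPM + 1) of CD103int DC minus cDC1, cDC2 and macrophages (panels) for each gene of the 7 lists (rows), with red points for genes at least 2-fold apart with at least 1 CPM and dotted lines at a difference of 1 in either direction. Every point of the cDC2 panel lies between the dotted lines, and Osm is the largest difference to cDC1, at 3.06.

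The genes with the most similar profiles were sought among 13287 others with at least 1 CPM in any library, by the distance between log2(CPM + 1) values over the 4 libraries, each centred on its mean. Nearest to Il15 were the keratin gene Krt80 (distance 0.230), the interleukin-1 beta gene Il1b (0.232) and the zinc exporter gene Slc30a1 (0.234). Nearest to Il15ra were the viral RNA sensor gene Ifih1 (0.0817), Slfn8 (0.0868) and Ifi211 (0.0979). Ifih1 stood at 123 CPM in CD103int DC, 118 in cDC1, 172.5 in cDC2 and 511 in macrophages. Nearest to Il2rb were the T cell surface gene Thy1 (0.650), Rgs16 (0.692) and the cytotoxic pore gene Prf1 (0.701), which is also on the NK list. Prf1 was low, at 0.0523 CPM in CD103int DC, 2.98 in cDC1, 3.23 in cDC2 and 0.440 in macrophages. Nearest to Il2rg were the gene model Gm13357 (0.0490), Ly6e (0.0650) and Zfp160 (0.0742). Gm13357 stood at only 0.331 CPM in CD103int DC, 0.591 in cDC1, 0.798 in cDC2 and 1.26 in macrophages. At such levels the pseudocount of 1 CPM shrinks the differences between libraries. With 4 libraries, many genes share such an order, and these distances are a description.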

How the data were processed

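RNA from 4 sorted populations was sequenced, with 1 library each. Per the labels' protocols, total RNA was purified with a column kit and DNase and made into directional libraries. The values deposited by the authors are a linear expression signal. The table calls it CPM with TMM scaling (trimmed mean of M values) and says that genes were filtered. The aligner, the counter, its strand setting and the build were not stated in the labels or the table. All 13976 identifier and symbol pairs matched GENCODE M21 (GRCm38), which gave coordinates and exon lengths. Values fell on a grid of 1/100 of a step, and the step was taken as 1 read (0.0174 to 0.0216 CPM); between 70.6% and 79.0% of values above 0 were whole reads at a tolerance of 0.001 of a step. As the rest were estimates, no count test was run, and with 1 library per population no test was possible. Poisson intervals for levels and exact binomial intervals for folds and shares (95%) use these reads, cover counting error only, and treat amplified reads as independent molecules. A value of 1 CPM stood for 46.4 to 57.4 reads, a counting error of 13.2% to 14.7%.

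Columns were matched to samples by the titles in the labels. The log2 difference used a pseudocount of 1 CPM, which understates the differences of low genes. Printed folds are ratios of CPM. All 8 members are named. From the 7 lists, genes at least 2-fold apart in a pair with CD103int DC and some of the highest are named, plus the 3 genes nearest in profile to Il15, Il15ra, Il2rb and Il2rg. Genes outside this rule, such as Il2ra, Il21r, Cish, Adam17 and Myc, were added after their values were seen. Some genes of the lists are not reported here. The members and lists were chosen with earlier results of these data known. The code was checked on simulated data. Python 3.11.15, pandas 2.3.3, SciPy 1.17.1 and Biopython 1.88 were used. Alternatives were other pseudocounts, minimum levels and column scalings.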

Additional observations from a re-analysis of the deposited data

How the results depend on the processing

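No paired analysis was possible because each population had 1 library, and no library could be left out. Across 7 alternatives, the counts of members at least 2-fold apart kept within 1.5 times in 77 of 84 cases. The 7 others each came to 0 from 1. The setting with no minimum could not move these counts, since all 8 members reached 1 CPM in every pair. A fall from 3 to 2 was scored as kept. Il2rb in CD103int DC against macrophages was no longer called with a pseudocount of 5 CPM, a minimum of 10 CPM or equal totals. With a pseudocount of 5 CPM, 0 members were higher in CD103int DC than in cDC1, 0 lower in cDC1 than in cDC2 and 0 higher in cDC2 than in macrophages. With a minimum of 10 CPM, 0 were higher in CD103int DC than in cDC1, 0 lower in CD103int DC than in cDC2, 0 lower in cDC1 than in cDC2 and 0 higher in cDC2 than in macrophages, since Il15 and Il2rb lie under 10 CPM in those libraries. With that minimum 9.16% of all genes were higher in CD103int DC than in cDC1 and 0.665% lower in CD103int DC than in cDC2. No called difference of a member changed sign under these alternatives. The differences of the 8 members in the 6 pairs stayed within their counting interval in 156 of 240 cases (the other pseudocounts and scalings, since a minimum level cannot move them), and the counts over the 7 lists kept within 1.5 times in 550 of 588. Il15 in cDC1 (60 estimated reads) and Il2rb in CD103int DC (37) are the member levels that rest on the fewest reads. The genes listed at 0 in cDC1 (454, against 19 in cDC2 at a like depth) are a further limit on low levels in that library.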
